A study of Mus musculus with 6 samples.

Results

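Atp13a2 and 8 other lysosomal genes were examined in whole mouse brain of animals lacking TRMT1L (KO) and of wild-type animals (WT). The 9 genes were taken by symbol from the 55450 genes of the count tables: Atp13a2, Ctsb, Ctsd, Lamp1, Hexa, Grn, Psap, Tfeb and Mcoln1. All 9 passed the filter on low counts, which left 21237 genes. They were proposed with the KO and WT values of these libraries already known, so their own differences are given as a description, without a test. Long RNA was sequenced from 3 KO and 3 WT brains, labelled as biological triplicates. TRMT1L is related to TRMT1, which methylates guanosine in tRNA. The labels give no strain, sex, age or knockout allele, and the control animals are described only as WT.

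The lysosome is the acidic compartment in which cells break down protein, lipid and sugar chains. Its acid is made by a proton pump, the V-ATPase, and its enzymes work beside membrane proteins that move ions, lipids and metals. The transcription factor TFEB, with its relatives TFE3 and MITF, binds E-box letters known as the CLEAR element in front of many lysosomal genes and raises them together when lysosomes are stressed or nutrients are short. Atp13a2 encodes a P5-type ATPase of the late endosome and lysosome that exports polyamines, and its loss in people causes a form of parkinsonism. Whether Atp13a2 differed together with a general, TFEB-type change of lysosomal genes was the question asked of these counts.

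The promoters of the genes are shown first, because the CLEAR element is what TFEB reads. RefSeq promoter windows (GRCm38.p6) were held for 8 of the 9 genes, Ctsb being the exception. The 250 bases before each start were searched on both strands for CACGTG, the core of the CLEAR element, which is its own reverse complement. The letters are printed 5′ to 3′ on the strand of the gene, with every CACGTG in capitals, for Atp13a2 and for the 3 genes that hold the core.

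Atp13a2, chr4:140986671-140986920, plus strand: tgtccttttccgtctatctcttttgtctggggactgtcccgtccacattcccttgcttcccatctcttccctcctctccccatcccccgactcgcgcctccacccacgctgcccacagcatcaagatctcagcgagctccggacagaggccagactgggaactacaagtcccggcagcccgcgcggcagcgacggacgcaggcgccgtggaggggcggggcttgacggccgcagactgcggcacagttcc
Lamp1, chr8:13158911-13159160, plus strand: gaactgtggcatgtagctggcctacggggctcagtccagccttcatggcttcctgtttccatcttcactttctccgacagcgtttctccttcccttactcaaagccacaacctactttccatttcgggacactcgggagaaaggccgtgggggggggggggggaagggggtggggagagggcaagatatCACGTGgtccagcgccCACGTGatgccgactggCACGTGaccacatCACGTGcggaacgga
Mcoln1, chr8:3500269-3500518, plus strand: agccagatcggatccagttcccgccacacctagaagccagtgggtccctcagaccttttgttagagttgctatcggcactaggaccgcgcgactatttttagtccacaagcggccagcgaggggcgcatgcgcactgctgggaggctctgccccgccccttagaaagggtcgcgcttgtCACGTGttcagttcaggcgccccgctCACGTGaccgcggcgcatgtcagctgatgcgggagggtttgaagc
Ctsd, chr7:142387828-142388077, minus strand: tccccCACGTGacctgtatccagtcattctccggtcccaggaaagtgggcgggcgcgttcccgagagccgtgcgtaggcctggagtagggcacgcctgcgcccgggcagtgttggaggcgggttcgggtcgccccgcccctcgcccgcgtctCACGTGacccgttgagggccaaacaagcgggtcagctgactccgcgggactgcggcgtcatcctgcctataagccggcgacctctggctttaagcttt

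Lamp1 held 4 copies of CACGTG, and Mcoln1 and Ctsd held 2 each. The longer form TCACGTGA, which contains the core, occurred in Mcoln1 and Ctsd. The window of Atp13a2 held neither, and Hexa, Grn, Psap and Tfeb held no CACGTG in any of their windows. Among all 32851 promoter windows of the table, 6.02% held CACGTG and 0.785% held TCACGTGA. The full 10-letter CLEAR palindrome, TCACGTGA with a G before it and a C after it, was in 0 of the 8 genes and in 0.241% of all windows. A match describes letters in this stretch alone and says nothing of binding. Of the 105 genes in the 4 lysosomal lists used below, 83 had a window (79.0%), under the 80% needed to give a share over those lists, so none is given.

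Counts in genes on the chosen strand ranged from 31201119 to 36145961 per library. Reads mapped to no gene made up 50.3% to 52.2% of mapped reads in WT and 48.6% to 49.8% in KO, and reads mapped to several places 4.61% to 5.16% and 5.25% to 5.60%. Reads assigned to more than 1 gene made up 0.784% to 0.808% in WT and 0.863% to 0.909% in KO. None of these 3 shares overlapped between the groups, and their part in the differences given below was not tested. The targeted gene Trmt1l averaged 34.4 ± 1.26 CPM in the WT group against 2.87 ± 0.171 CPM in the KO group (SD, n = 3), so each library sat on the side its label gives. CPM scales each count to the total over tested genes, with the scaling factors of edgeR. Over all 21237 tested genes, 2 had a Benjamini-Hochberg adjusted p under 0.05 in the quasi-likelihood test of edgeR (0.00942%), 0 higher and 2 lower in KO. No markers of any cell type in the lists examined were at 0, and the tissue label brain was matched by neuron markers whose summed level ran from 5335 to 5650 CPM over the 6 libraries. Nothing in the labels says that the animals came from separate litters or days.

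Levels were first compared per length, as CPM per kb of annotated exon, averaged over the 6 libraries. Psap, the precursor of the saposins that help lipid-degrading enzymes, was highest at 363. Lamp1, a heavily glycosylated protein of the lysosomal membrane, followed at 79.7, Ctsb, a cysteine protease, at 57.3, and Ctsd, an aspartic protease, at 37.0. Hexa, a subunit of the enzyme that degrades GM2 ganglioside, stood at 19.1 and Atp13a2 at 17.9. Grn, whose product progranulin is cut into granulins in the lysosome, stood at 11.8, Mcoln1, a calcium channel of the lysosome, at 9.11 and Tfeb at 2.11. Each gene lay above the next in all 6 libraries, except that the ranges of Hexa (17.7 to 21.4) and Atp13a2 (16.3 to 20.1) overlapped. Tfeb was thus the lowest of the 9 in every library.

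**Figure D1:**
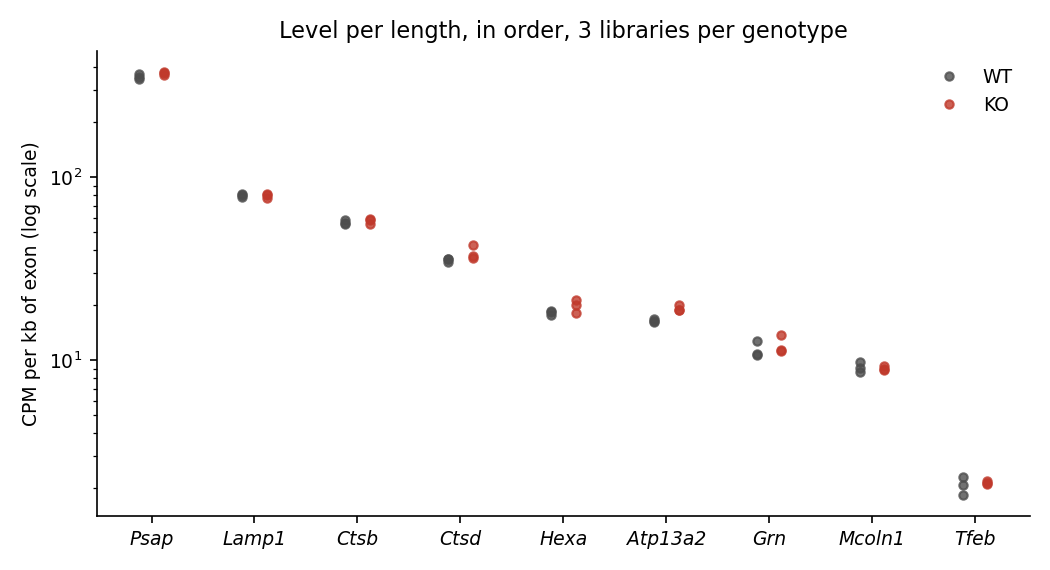
CPM per kb of annotated exon (log scale) for the 9 genes in order of level, with 3 WT and 3 KO libraries as points. Psap is highest at 363 on average and Tfeb lowest at 2.11, and only Hexa and Atp13a2 overlap as neighbours.

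Atp13a2 (ENSMUSG00000036622.15) occupies positions 140986873 to 141007330 of chromosome 4 (GRCm38, plus strand). Its counts were 3666, 3088 and 3213 in the WT libraries, in order of replicate, against 3926, 3802 and 4357 in the KO libraries. On the CPM scale these were 100.7, 98.5 and 97.6 in WT and 113, 113 and 121 in KO. Every KO library lay above every WT library, and the WT libraries were within a few CPM of each other. The group means were 99.0 ± 1.61 CPM (WT) and 115 ± 4.38 CPM (KO; SD, n = 3). The fitted log2 fold change, KO over WT, was 0.22 (SE 0.0463), a difference of 16.7% with a 95% interval from 8.78% to 25.2%. This is the value for which the gene was proposed, and the interval makes no allowance for that choice. Without KO library 3, the highest, the log2 fold change was 0.19. Fold changes moved with the GC content of the genes in these libraries, as described further on. When a smooth trend on GC content was removed from each library (GC correction), the value of Atp13a2 was 0.11 (SE 0.0408).

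No annotated gene overlaps Atp13a2. The nearest tested gene before it, Sdhb, a subunit of mitochondrial complex II, ends 7680 bp away and stood at 73.4 ± 2.64 CPM (WT) and 75.9 ± 3.53 CPM (KO; SD, n = 3), with overlapping groups. The nearest one after it, Mfap2, an extracellular microfibril protein, starts 3088 bp away. It stood at 2.23 ± 0.212 CPM (WT) and 2.72 ± 0.435 CPM (KO), also overlapping. On the opposite strand Atp13a2 had 10 counts over all 6 libraries, against 22052 on its own strand. Of the 9 genes, 5 (Ctsb, Lamp1, Grn, Psap and Mcoln1) had enough opposite-strand counts for edgeR's test, and 0 of them had an adjusted p under 0.05 (against 0.0278% of 10787 genes) or an unadjusted one. Grn had the largest share, its opposite-strand counts making 6.20% of those on its own strand.

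**Figure D2:**
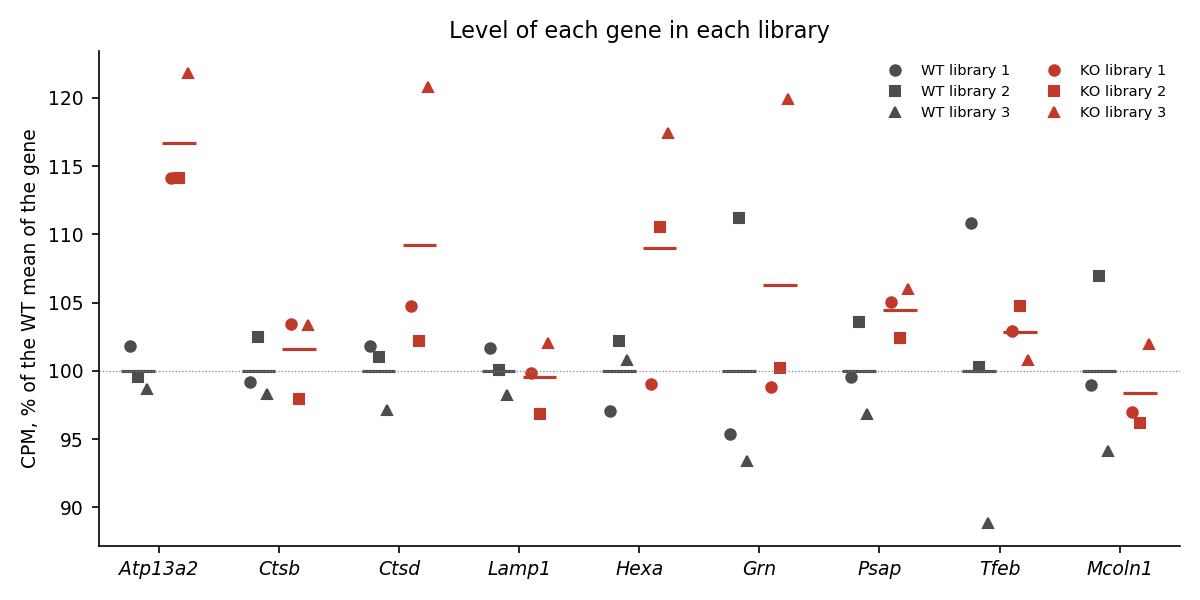
CPM of each gene in each library as a percentage of the WT mean of that gene, with bars at the group means (n = 3 each). Atp13a2 in KO lies between 114% and 122% in all 3 libraries, while for Lamp1, Tfeb and Mcoln1 the groups overlap.

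Tfeb, the regulator itself, had overlapping groups and a fitted difference near 0. Its CPM values were 13.1, 11.8 and 10.5 (WT) and 12.1, 12.4 and 11.9 (KO), so the KO values lay inside the WT range. The log2 fold change was 0.04 (SE 0.0933), a difference of 2.72% with a 95% interval from -10.8% to 18.3%. Leaving out single libraries gave values from -0.04 (without WT library 3) to 0.12 (without WT library 1). TFEB is controlled mainly by where the protein sits in the cell, which counts of its RNA do not show.

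Mcoln1 and Lamp1, which hold the CACGTG core in the promoters printed above, had the lowest fold changes of the 9 without GC correction. With it, Mcoln1 and Lamp1 were both at -0.03 and Tfeb was the lowest at -0.08. Mcoln1 stood at 68.7, 74.2 and 65.3 CPM in WT and 67.3, 66.8 and 70.8 CPM in KO. Its log2 fold change was -0.02 (SE 0.0569), with a 95% interval of the difference from -9.75% to 7.27%. Lamp1 stood at 217, 214 and 210 CPM in WT and 213, 207 and 218 CPM in KO, a log2 fold change of -0.01 (SE 0.0413) with a 95% interval from -0.10 to 0.08. For both genes the groups overlapped. Their signs were not stable: Mcoln1 ran from -0.06 (without WT library 3) to 0.03 (without WT library 2), and Lamp1 ran from -0.02 (without KO library 3) to 0.01 (without KO library 2).

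Among the proteases, Ctsb was at 341, 353 and 338 CPM in WT and 356, 337 and 356 CPM in KO, a log2 fold change of 0.02 (SE 0.0411) whose interval runs from -4.57% to 8.12%. Leaving out single libraries gave values of Ctsb from 0.01 (without KO library 1) to 0.05 (without KO library 2). Ctsd, the third gene with the core, was at 84.6, 83.9 and 80.7 CPM in WT and 87.0, 84.9 and 100.3 CPM in KO. Its log2 fold change was 0.13 (SE 0.0633). The KO libraries of Ctsd lay above the WT libraries, but KO libraries 1 and 2 did so narrowly, and leaving out KO library 3 gave 0.05. Atp13a2 and Ctsd were the 2 of 9 genes whose KO libraries all lay above WT. Over all tested genes 7.46% did so, and 14.4% were separated in either direction. Nothing is read from the count, since this contrast was known when the genes were proposed.

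Hexa and Grn leaned on the same library. Hexa was at 35.3, 37.2 and 36.7 CPM in WT and 36.1, 40.2 and 42.7 CPM in KO (log2 fold change 0.13, SE 0.0669). Grn was at 37.8, 44.1 and 37.1 CPM in WT and 39.2, 39.8 and 47.6 CPM in KO (log2 fold change 0.09, SE 0.0868). KO library 3 was the highest of all 6 for both. Leaving it out gave 0.07 for Hexa and -0.01 for Grn. In the other direction, Hexa was at 0.19 without KO library 1, and Grn at 0.14 without KO library 1 and at 0.17 without WT library 2. Among the markers of glia, 8 of 15 for microglia and 4 of 10 for astrocytes were also highest in that library, and 0 and 3 were lowest there. The share of all genes highest in KO library 3 was not taken. Gfap, the intermediate filament of astrocytes, was at 248 CPM there and between 115 and 140 CPM in the other 5. The microglia genes C1qa (23.8 CPM), C1qb (32.8 CPM) and Tyrobp (8.22 CPM) and the lysosomal membrane gene Cd68 (7.61 CPM) had their highest values there too. The summed astrocyte markers were lowest there (5118 CPM), but Slc1a2 made up 62.4% to 66.7% of that sum in the 6 libraries. The other 9 summed to 1923 CPM there, the highest of the 6, against 1773 to 1853 CPM. Gfap is part of that sum, and its excess there is larger than the lead of the sum. The sum thus does not show astrocyte markers in general to be highest there. The summed microglia markers (311 CPM) were below those of WT library 2 (318 CPM). Their part in the values of Ctsd, Hexa and Grn was not tested. Psap was at 970, 1009 and 944 CPM in WT and 1024, 998 and 1033 CPM in KO, a log2 fold change of 0.06 (SE 0.0388) with overlapping groups. Leaving out single libraries gave values of Psap from 0.04 to 0.09.

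The relation of Atp13a2 to the other genes was followed within each library by dividing its CPM by theirs. The ratio to Mcoln1 was 1.47, 1.33 and 1.49 in WT and 1.68, 1.69 and 1.70 in KO. The ratio to Lamp1 was 0.464, 0.461 and 0.465 in WT and 0.530, 0.546 and 0.553 in KO. Atp13a2 was proposed for its difference, so its ratio to a gene with little difference parts the groups by that choice. The mean ratio in KO was between 1.07 times (Ctsd) and 1.18 times (Mcoln1) that in WT over the 8 genes.

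Lysosomal genes at large were then taken as 4 lists of 105 genes that exclude the 9 above. They were 16 peptidases, 36 lipid and sugar hydrolases, 35 membrane and transport proteins and 18 V-ATPase subunits. The list names are loose, since the peptidases include the oxidase Pcyox1 and the hydrolases include the nuclease Dnase2a. Of the 105 genes, 102 had enough counts, Acp5, Mcoln2 and Mcoln3 being left out. The median log2 fold change of the 102 was 0.02, with 55 above 0 and 47 below, beside a median of 0.00 and 50.1% above 0 over all genes. In edgeR's quasi-likelihood test 0 of the 102 had an adjusted p under 0.05, the smallest being 0.576. Without adjustment 4 were higher in KO (3.92%, against 4.54% of all genes) and 2 lower (1.96%, against 3.38%). The DESeq2 Wald test (0.281% of the 8885 genes it gave an adjusted p were called) and limma-voom also called 0. KO lay above WT without overlap for 10 of the 102 (9.80%, against 7.46%) and below it for 5 (4.90%, against 6.97%).

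The fitted log2 fold change of Atp13a2, 0.22, was matched or exceeded by 0 of the 102 genes and by 7.43% of all genes tested. After GC correction, at 0.11, it was matched or exceeded by 10 of the 102 (9.80%) and by 16.6% of all genes. Its difference from the lysosomal median was 0.20, and 0.10 after GC correction. Atp13a2 was proposed for this value and the 102 genes were not, so its rank is a description. Per library, Atp13a2 stood 0.19, 0.19 and 0.28 above its WT mean on the log2 CPM scale in KO libraries 1 to 3. The median of the 102 genes stood at 0.02, -0.03 and 0.03 in the same libraries, against 0.01, 0.02 and -0.02 in the WT libraries. The lysosomal median in KO thus fell on either side of 0.

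**Figure D3:**
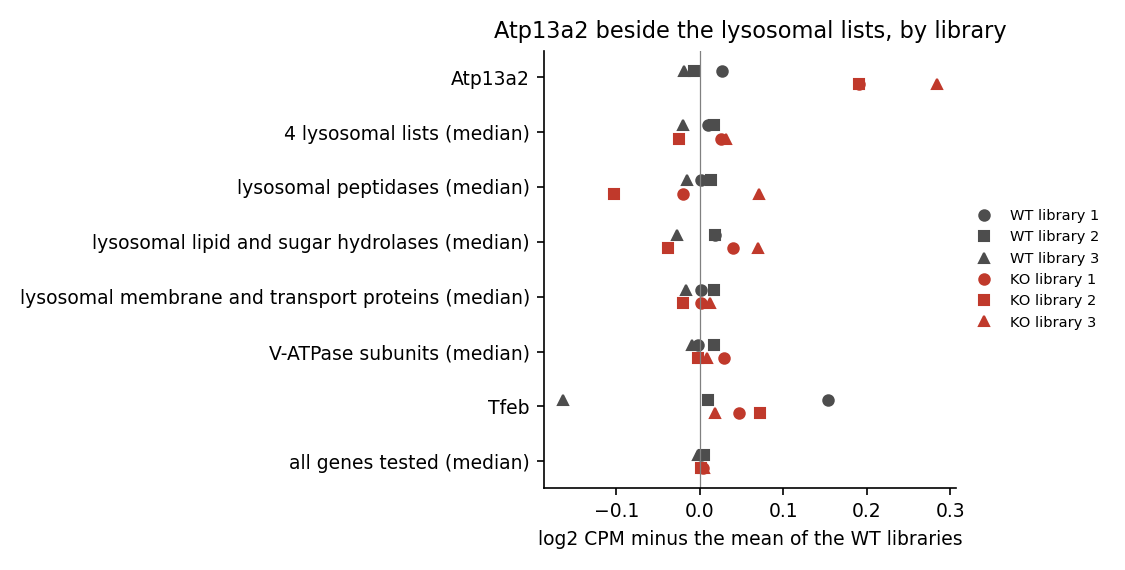
Log2 CPM minus the mean of the WT libraries for Atp13a2 and Tfeb, and the median of that value over each lysosomal list and over all tested genes, by library. Atp13a2 in KO is at 0.19, 0.19 and 0.28, while the median of the 102 lysosomal genes stays between -0.03 and 0.03.

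Among the peptidases the median log2 fold change was -0.01 (6 above 0, 10 below). Scpep1 (0.15, SE 0.110) and Dpp7 (0.14, SE 0.0769), both peptidases that trim protein ends, had the highest values. Cpq, a carboxypeptidase, had the lowest at -0.21 (SE 0.0886), followed by Ctss, a cathepsin typical of microglia, at -0.17 (SE 0.103). Scpep1 also depended on KO library 3 (18.4 CPM, the next highest being 15.2 CPM), and leaving it out gave 0.01. Dpp7 was at 0.09 without KO library 1. Ctss ran from -0.28 (without KO library 3) to -0.09 (without WT library 2 or KO library 2), and Cpq was at -0.13 when strand was ignored.

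Among the 35 tested lipid and sugar hydrolases the median was 0.03 (23 above 0, 12 below). Gaa, which degrades glycogen in the lysosome, was at 307, 288 and 297 CPM in WT and 334, 322 and 331 CPM in KO, a log2 fold change of 0.15 (SE 0.0415) that was 0.05 after GC correction. Dnase2a, the lysosomal DNase, had 0.21 (SE 0.162) with overlapping groups, and -0.04 when strand was ignored. Without KO library 3 it was at 0.08, and without WT library 1 at 0.34. The lowest were Glb1, a beta-galactosidase, at -0.14 (SE 0.0655) and Ids, which degrades glycosaminoglycans, at -0.11 (SE 0.0435). The KO libraries of both lay below the WT libraries, and Ids was at -0.06 after GC correction.

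Membrane and transport proteins had a median of -0.01 (16 above 0, 17 below, of 33 tested). Mfsd12, needed to bring cysteine into lysosomes, stood at 26.2 ± 0.215 CPM (WT) and 29.8 ± 0.992 CPM (KO; SD, n = 3) without overlap, a log2 fold change of 0.19 (SE 0.0569). It was 0.08 after GC correction and 0.09 when strand was ignored. Cln3, mutated in juvenile Batten disease, had 0.17 (SE 0.0897). At the other end stood Tpcn2, an ion channel of the endolysosome, at -0.15 (SE 0.0970) and the nucleoside transporter Slc29a3 at -0.08 (SE 0.0643). The groups overlapped for Cln3, Tpcn2 and Slc29a3. Tpcn2 was at -0.05 without WT library 1 and at -0.24 without WT library 3, and Slc29a3 at -0.12 without WT library 1.

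V-ATPase subunits had a median of 0.01 (10 above 0, 8 below). Atp6v0c, which forms the proton-carrying ring, was at 155, 140 and 159 CPM in WT and 172, 170 and 173 CPM in KO, a log2 fold change of 0.18 (SE 0.0514). Atp6v0e was at 0.14 (SE 0.0887), Atp6v1h at -0.04 (SE 0.0558) and Atp6v1d at -0.09 (SE 0.0481). After GC correction Atp6v1h was at 0.05 and Atp6v1d at -0.04. Without WT library 3 Atp6v1d was at -0.05. Atp6v0e was at 0.06 without KO library 2, and Atp6v1h ran from -0.09 (without KO library 1) to 0.01 (without KO library 3). Of the 18 subunits, 16 had a log2 fold change under 0.1 in absolute size. Atp6v0c has processed pseudogenes in the annotation (Atp6v0c-ps1 and Atp6v0c-ps2), so its counts are less certain. It was the only one of the 102 lysosomal genes called by the fit without a filter, which called 298 of 37245 genes.

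The genes that control TFEB or answer to it were taken as a list of 22, of which 21 were tested and Tfec had too few counts. Their median was 0.02, with 13 above 0 and 8 below. In edgeR's test 0 passed over all genes, while 2 were higher (9.52%, against 4.54% of all genes) and 1 lower (4.76%, against 3.38%) at an unadjusted p under 0.05. Flcn, the folliculin gene, whose product lets mTORC1 act on TFEB and which is itself a TFEB target, was at 45.4, 44.7 and 39.8 CPM in WT and 48.9, 47.6 and 47.2 CPM in KO (log2 fold change 0.14, SE 0.0601). Its partner Fnip1 was at -0.10 (SE 0.0487) and Ppp3cb, a catalytic subunit of calcineurin, at -0.11 (SE 0.0437). GC correction brought Flcn to 0.09, Fnip1 to -0.03 and Ppp3cb to -0.04. Without WT library 3 Flcn was at 0.09, and without KO library 3 Fnip1 was at -0.07. Gpnmb, a membrane glycoprotein that rises in lysosomal storage, ranged from 2.65 to 2.83 CPM in WT and from 3.24 to 14.3 CPM in KO, the highest being KO library 3. Its log2 fold change was 1.38 (SE 0.456), and 0.39 when that library was left out.

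Of 30 autophagy genes, all tested, 19 were above 0 and 11 below, with a median of 0.02. In edgeR's test 0 passed over all genes, and 3 were higher at an unadjusted p under 0.05 (10%, against 4.54%). Vps18, a subunit of the HOPS complex that fuses vesicles with lysosomes, was at 41.2, 42.2 and 40.2 CPM in WT and 48.0, 47.9 and 47.4 CPM in KO. Its log2 fold change of 0.21 (SE 0.0502) was the closest to that of Atp13a2 in this list. Map1lc3a, an LC3 protein of the autophagosome membrane, had 0.16 (SE 0.0585). Ulk2, a kinase that starts autophagy, had -0.07 (SE 0.0470) and the autophagy receptor Optn -0.11 (SE 0.0685). After GC correction Vps18 was at 0.13 and Map1lc3a at 0.04. Ulk2 was at -0.04 without WT library 3, and Optn at -0.06 without KO library 2.

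The relatives of Atp13a2 had fold changes on both sides of 0. Atp13a1, which clears misinserted proteins from the endoplasmic reticulum, stood at 49.6 ± 4.04 CPM (WT) and 55.4 ± 3.48 CPM (KO; SD, n = 3; log2 fold change 0.16, SE 0.0689) with overlapping groups. Atp13a3, a polyamine transporter like Atp13a2, stood at 108 ± 1.45 CPM (WT) and 101.5 ± 0.606 CPM (KO), and its KO libraries lay below the WT libraries (-0.09, SE 0.0425). Atp13a4 (-0.03, SE 0.0798) and Atp13a5 (-0.11, SE 0.0690) overlapped between the groups. After GC correction Atp13a1 was at 0.08 and Atp13a3 at -0.02. Without WT library 3 Atp13a1 was at 0.10. Without KO library 2 Atp13a4 was at 0.06 and Atp13a5 at -0.06. With the polyamine genes these made a list of 15, with a median of 0.07 and 10 above 0. In edgeR's test 0 passed over all genes, and 3 were higher at an unadjusted p under 0.05 (20%, against 4.54%). Smox, spermine oxidase, had 0.19 (SE 0.0773), and Sms, spermine synthase, had -0.11 (SE 0.0568). Smox was at 0.10 without KO library 2, and Sms at -0.06 without WT library 3 and at -0.07 after GC correction.

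GC content moved with these differences. The longest transcript of Atp13a2 has 62.5% GC. Across the 21237 tested genes the log2 fold change and GC content had a Spearman correlation of 0.39, and across the 102 lysosomal genes of 0.47, given as a description since genes share the libraries. The median log2 fold change of the 827 tested genes with 60% GC or more was 0.11, and that of the 6567 genes under 45% was -0.06. By library, the median of the GC-rich genes stood 0.10, 0.08 and 0.16 above the WT mean in KO libraries 1 to 3 and within 0.01 of 0 in the WT libraries. KO library 3 was the highest, as for Atp13a2.

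Among the other genes with 60% GC or more, 19.4% matched or exceeded Atp13a2 without GC correction and 20.5% with it. After the correction Psap had 0.01, Grn 0.02, Ctsd 0.06 and Hexa 0.07. Tfeb, whose transcript has 63.2% GC, had -0.08 (SE 0.0970), so its sign turned. The median of the 102 genes was 0.01, with 53 above 0. How much of the Atp13a2 difference belongs to GC content was not tested beyond this correction.

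**Figure D4:**
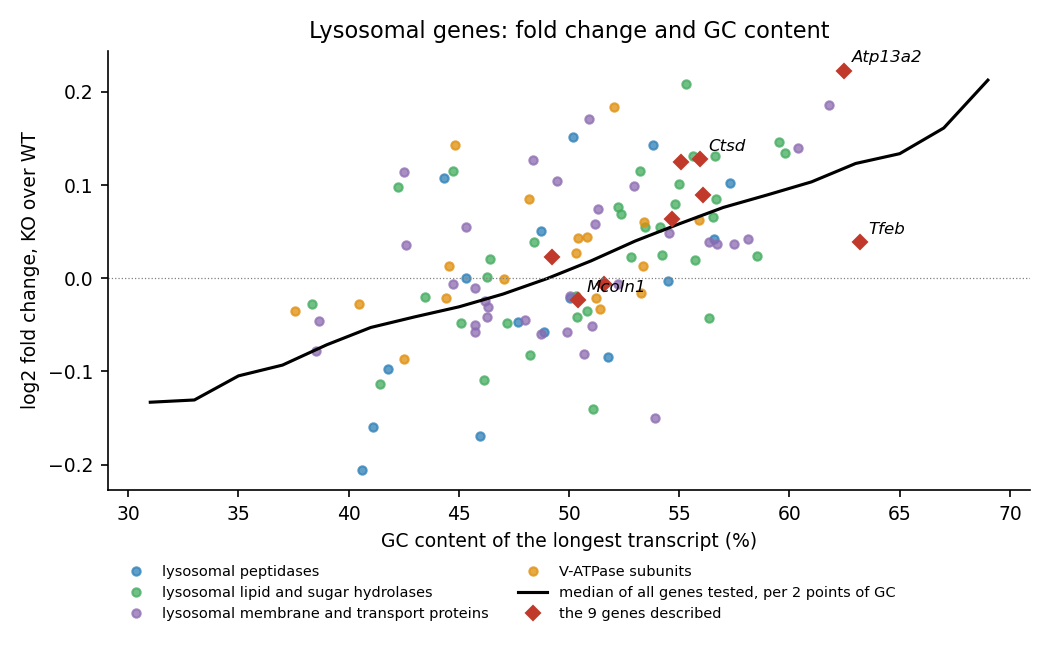
Log2 fold change, KO over WT, against GC content of the longest transcript for the 102 lysosomal genes (circles) and the 9 genes described (diamonds). The line is the median of all tested genes in steps of 2 percentage points of GC, and Atp13a2 lies above the line at 62.5% GC while Tfeb lies below it.

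**Figure D5:**
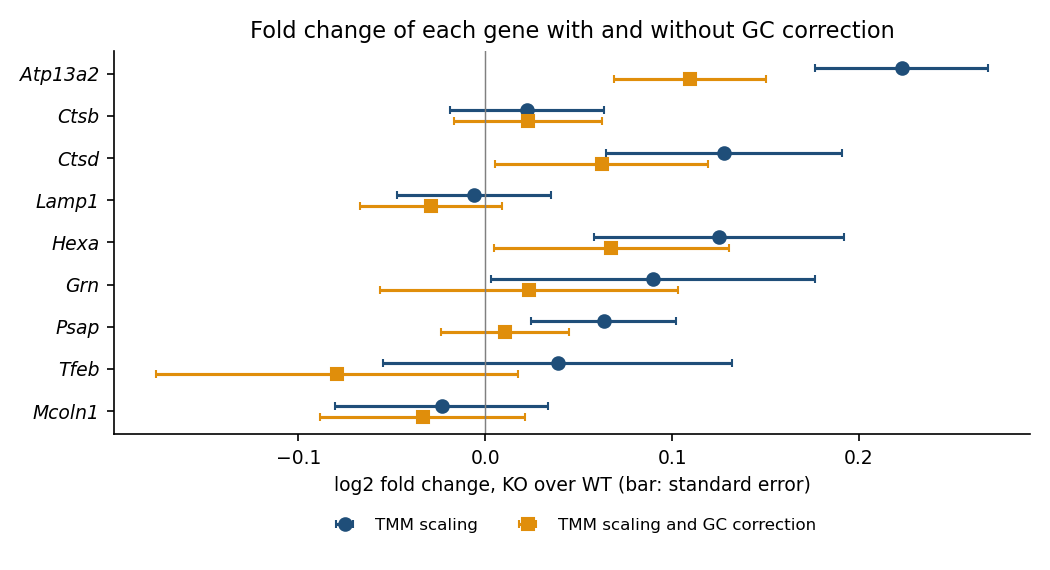
Log2 fold change of each of the 9 genes with its standard error, from the fit with TMM scaling (circles) and with GC correction added (squares). Atp13a2 moves from 0.22 to 0.11 and Tfeb from 0.04 to -0.08.

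In these bulk samples a larger number of cells of a type and more RNA per cell cannot be told apart. The summed level of 15 microglia markers, cells rich in lysosomes, ranged from 260 to 318 CPM in WT and from 264 to 311 CPM in KO, and 6 of the 15 were below 0 in log2 fold change. In edgeR's test 0 of the 15 had an adjusted p under 0.05, while 3 were lower at an unadjusted p under 0.05 (20%, against 3.38% of all genes) and 0 higher. These were P2ry12 (-0.34), Siglech (-0.31) and Gpr34 (-0.34), named after their values were seen, and the KO libraries of all 3 lay below the WT libraries. Other microglia markers were at -0.40 (Itgam), -0.14 (Cx3cr1), -0.07 (Csf1r), 0.01 (Tmem119) and 0.33 (Trem2) with overlapping groups. Fcrls was at 0.18 with KO above WT. Oligodendrocyte markers summed to between 4374 and 4804 CPM in WT and between 3781 and 4502 CPM in KO, with 8 of 10 below 0. Choroid plexus markers summed to between 325 and 380 CPM in WT and between 386 and 460 CPM in KO, with 9 of 10 above 0, and their groups did not overlap. Of the 10, 3 were higher at an unadjusted p under 0.05 (30%, against 4.54%) and 0 after adjustment. Ttr made up 81.1% to 83.6% of the sum, and without it the other 9 summed to between 61.3 and 66.5 CPM in WT and between 65.5 and 78.3 CPM in KO, which overlapped. Astrocyte markers (5291 to 5461 CPM in WT, 5118 to 5362 CPM in KO), vascular markers (375 to 390 and 359 to 387 CPM) and blood markers (110 to 150 and 99.0 to 248 CPM) overlapped in their sums. Among the 10 astrocyte markers 3 were higher (30%, against 4.54%) and 1 lower (10%, against 3.38%) at an unadjusted p under 0.05, and 0 after adjustment. The part of these cell types in the value of Atp13a2 was not tested.

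The pattern of Atp13a2 over the 6 libraries was set beside those of the other 12723 genes with at least 5 CPM. The highest Pearson correlations of log2 CPM were with Mbd6 (0.997), Rack1 (0.993), Shmt2 (0.993), Gigyf1 (0.993) and Snd1 (0.991), none of them lysosomal. With so many genes and 6 libraries such values describe these libraries alone. Mbd6, which has 63.1% GC, stood at 50.6 ± 0.646 CPM (WT) and 58.4 ± 2.19 CPM (KO; SD, n = 3), a log2 fold change of 0.21 that was 0.09 after GC correction. Rack1 has 48.7% GC, and its 0.17 was 0.17 after it. Among the lysosomal genes described first, the correlation with Atp13a2 was 0.82 for Ctsd, 0.75 for Psap, 0.73 for Hexa, 0.51 for Grn, 0.41 for Ctsb, 0.29 for Tfeb, 0.13 for Lamp1 and -0.04 for Mcoln1. These correlations span both genotypes, so they partly restate the KO and WT values known when the genes were proposed.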

How the data were processed

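The authors deposited raw read counts per gene for 6 libraries in the layout of the STAR aligner. The submitters' processing notes name cutadapt 1.9.1 and STAR 2.7.0f, without their settings. The genome build and annotation are not given in the sources used here. The 55450 gene identifiers equal those of GENCODE M21 (GRCm38), which gave symbols, positions and exon lengths. Counts of the strand column holding 94.6% to 94.8% of stranded counts were used. Reads mapping to several places or to several genes are not in these counts.

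Genes were filtered with edgeR 4.0.16 (filterByExpr), scaled by TMM and tested with its quasi-likelihood test in R 4.3.3, genotype as sole factor, with Benjamini-Hochberg adjustment over 21237 genes. Log2 CPM used a prior count of 2. Intervals (95%) use the test's degrees of freedom and are not adjusted for the choice or number of genes. GC correction subtracts a lowess of log2 ratio on GC content of the longest transcript, per library. Alternatives used DESeq2 1.42.0 and limma 3.58.1.

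The 9 genes and the lists were chosen with earlier results of these data known. Genes named from a list are the 2 highest and 2 lowest by log2 fold change with at least 1 CPM; the 5 most alike need at least 5 CPM.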

Additional observations from a re-analysis of the deposited data

How the results depend on the processing

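The log2 fold change of Atp13a2 kept its sign in all 17 alternatives. It moved by more than the spread between libraries with GC correction (0.11) and with the replicate block with GC correction (0.11), as did Atp13a2 against lysosomal lists, its value minus their median (0.0996 and 0.0995). The replicate block alone left the value of Atp13a2 at 0.22 and gave 4 called genes. After the group mean of each gene was removed, same-numbered libraries correlated at 0.04, -0.03 and -0.06, which does not tie them together. The number of genes called was 298 of 37245 without a filter, 25 of 8885 in the DESeq2 Wald test and 1 of 15218 protein-coding genes. Of these, 2, 1 and 1 were among the 2 of the fit reported. The lysosomal genes called were 1 without a filter (Atp6v0c) and 0 in every other alternative. Leaving out 1 library at a time, Atp13a2 ranged from 0.19 to 0.24, its difference from the lysosomal median from 0.19 to 0.22, the lysosomal median from 0.01 to 0.04, the genes called from 2 to 5 and the lysosomal genes called from 0 to 0. At an unadjusted p under 0.05, from 3 to 7 lysosomal genes were higher and from 1 to 4 lower, with 7 without KO replicate 2 and 4 lower without WT replicate 1. The shares over all genes in those fits were not taken. With scaling by total counts, all genes had a median log2 fold change of -0.01. Of the 9 genes Tfeb had the fewest counts, 345 in its lowest library.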
